A study of Mus musculus with 16 samples.

Results

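Subcapsular sinus macrophages (SSMs) and medullary sinus macrophages (MSMs) were compared across all genes in non-draining lymph nodes (ndLN), the nodes that did not lie downstream of the tumor. The comparison used the 4 ndLN libraries of the 8 in the series, 2 of SSMs and 2 of MSMs, and 21085 genes were tested. Male C57B/6 mice carried a MOC2 tumor, a mouse squamous cell carcinoma line, after 500000 cells were placed intradermally in the flank, and nodes were taken 2 weeks later. Each ndLN pool joined 6 inguinal, axillary and brachial nodes of the side without a tumor from 2 mice, so these animals also bore a tumor and no tumor-free mouse entered the comparison. The age of the mice was not given in the sources used here. SSMs and MSMs of one pool number were taken to come from one pool of nodes. They were separated by flow cytometry, about 10000 cells at a time. Live CD45+ cells that were CD3-, B220- and Ly6G- and stained for CD11b and CD169 were taken as SSMs when they were CD11c- with low side scatter and as MSMs when they were CD11c+ with high side scatter. The remaining 4 libraries were SSMs and MSMs sorted the same way from tumor-draining lymph nodes (tdLN), and they entered the fit, where they shared in the estimate of the spread, the pool term, the scaling and the filters.

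Lymph node macrophages line the sinuses through which lymph passes. SSMs sit under the capsule, take up particles and pathogens from arriving lymph and pass antigen on to B cells, whereas MSMs lie in the medulla, where lymph leaves the node, and clear particles, pathogens and dying cells. SSMs are known for lying close to innate-like lymphocytes such as gamma-delta T cells and NK cells.

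Levels are given as CPM, counts per 1000000 counts of a library after TMM scaling, which assumes that most genes do not differ. Values are given for pool 1 and then pool 2. Differences are log2 fold changes of SSMs over MSMs with their standard error (SE) from edgeR's quasi-likelihood fit to the counts of all 8 libraries, with the pool as a term, and adjusted p-values are Benjamini-Hochberg values over all genes tested. A gene was called when its adjusted p was below 0.01 and its mean normalized count was above 100. With 2 pools a side, p-values measure the spread between pools of nodes that the pool term leaves, estimated over all 8 libraries including tdLN. A gene was treated as not measurable in a library at or below 3 counts, which was 0.0552 to 0.0769 CPM in these libraries. A fold against a group at that floor is a lower bound computed with 3 counts per library. The floor covers counting error only. Where the call of a gene given with its values ended when 1 library was left out, the highest adjusted p is given with the library left out for it, and the library that then stood alone on its side was assumed to vary like the other groups.

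The sorting markers gave a mixed picture of the labels. Itgax, which encodes CD11c, followed the gate with 396 and 418 CPM in MSMs and 100.4 and 63.6 CPM in SSMs (log2 fold change -2.35 ± 0.19 SE, edgeR adjusted p = 0.000132). Itgam, which encodes CD11b, was present in all 4 libraries with 67.5 and 54.5 CPM in SSMs and 9.64 and 10.7 CPM in MSMs (log2 fold change 2.56 ± 0.21 SE, edgeR adjusted p = 0.000167). Siglec1, which encodes the CD169 that both gates required, was low in every library and lower in the libraries labelled MSM, at 15.1 and 8.47 CPM in SSMs and 0.795 and 1.63 CPM in MSMs (log2 fold change 3.22 ± 0.41 SE, edgeR adjusted p = 0.00115). Ptprc, which encodes CD45, was high in both subsets (1650 and 1603 against 1246 and 1202 CPM) and was not called. Ly6g was at 0 in all 4 libraries, as the gate required. CD3 transcripts were not at 0 in spite of the CD3- gate. Cd3e was measured at 151 and 143 CPM in SSMs and 12.3 and 16.3 CPM in MSMs (log2 fold change 3.36 ± 0.20 SE, edgeR adjusted p = 4.31e-05). Cd3d was at 94.1 and 94.3 against 11.3 and 17.7 CPM and Cd3g at 199 and 241 against 21.7 and 21.6 CPM. In bulk libraries such as these, fewer cells of a type and less RNA per cell cannot be told apart. Siglec1 and Cd3g lost their calls without MSM pool 1 (edgeR adjusted p = 0.0139 and 0.0145).

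Of the 21085 genes tested, 2544 were called (12.1%), and the directions were nearly equal in number. SSMs were higher for 1267 genes (6.01%) and MSMs for 1277 (6.06%), and all 2544 had the same sign of the CPM difference in both pools. The calls were made on these same libraries, so the agreement in sign was largely set by the call and adds no support. The sign could also rest on values below the floor, as for Ighv7-3 in pool 2 (0.0202 CPM in SSMs and 0.0223 CPM in MSMs). The genes called for SSMs and MSMs were 12.7% and 12.8% of the 9985 genes over the mean count cutoff. Counts of calls in the lists below are to be read beside these shares. Genes called for SSMs differed by more, with a median log2 fold change of 2.11 beside -1.53 for genes called for MSMs. More than 16-fold differences were found for 220 genes higher in SSMs and 107 higher in MSMs. More than 64-fold differences were found for 61 and 28. The 2 sets also differed in weight. Genes called for SSMs held 24.1% of the counts of SSMs and 5.87% of those of MSMs, whereas genes called for MSMs held 40.9% of the counts of MSMs and 13.8% of those of SSMs. Scaling by library totals alone turned the split into 1727 genes higher in SSMs and 824 in MSMs and moved the median log2 fold change over all genes tested from 0.09 to 0.36, so list medians are to be read against the median over all genes. With the Holm adjustment 109 genes were called for SSMs and 98 for MSMs, and with the 4 ndLN libraries alone 590 and 354. In the plot of genes by level the called genes lie on both sides.

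**Figure D1:**
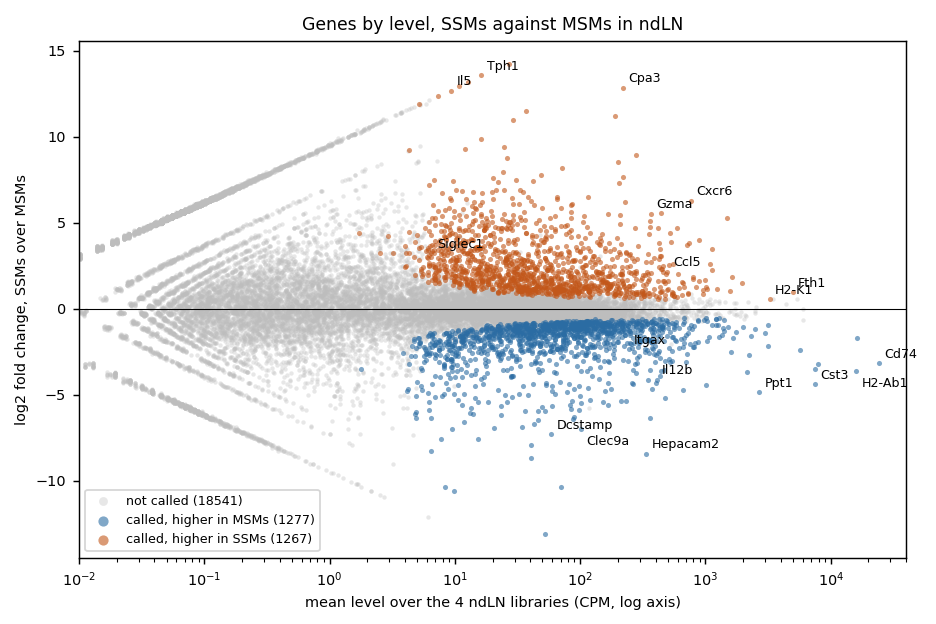
Points are the genes tested with a mean of at least 0.01 CPM, by its mean level over the 4 ndLN libraries (CPM, log axis) and its log2 fold change of SSMs over MSMs in ndLN, with the 1267 genes called for SSMs in orange and the 1277 called for MSMs in blue. The labelled genes include Clec9a and Cd74 low in the plot and Cpa3 and Cxcr6 high in it.

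SSM libraries spread their counts over more genes. The 10 most abundant genes took 6.32% and 5.56% of the counts in SSMs and 16.1% and 15.4% in MSMs, and genes above 1 CPM numbered 12482 and 12431 in SSMs and 11514 and 11783 in MSMs. Total counts per library ranged from 42972328 to 48130352 over the 8 libraries, so depth was similar.

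Among 22 sinus and tissue macrophage genes tested, 6 were called for SSMs and 3 for MSMs, with a median log2 fold change of 0.36 beside 0.09 over all genes tested. Their summed level was 10520 and 6982 CPM in SSMs and 5566 and 6211 CPM in MSMs. The transcription factor Maf was higher in SSMs (53.6 and 46.2 against 0.897 and 5.21 CPM, log2 fold change 4.02 ± 0.46 SE, edgeR adjusted p = 0.000712). So were Csf1r, the receptor for macrophage colony-stimulating factor (694 and 559 against 209 and 202 CPM), Fcgr1, the high-affinity IgG receptor (61.4 and 15.1 against 6.25 and 1.07 CPM), and Spic (41.3 and 33.3 against 17.2 and 12.9 CPM). MSMs were higher for Cd68, a lysosomal glycoprotein (385 and 326 against 211 and 134 CPM), for Mertk, a receptor for dying cells (3.82 and 2.7 against 0.129 and 0.465 CPM), and for Timd4, a phosphatidylserine receptor (74.4 and 78.6 against 19.9 and 20.6 CPM). Several genes that define sinus macrophages were low in all 4 libraries. Cd163 was at 0.0552 and 0.465 against 1.69 and 1.72 CPM, Cd5l at 1.62 and 0.525 against 1.36 and 4.28 CPM and Lyve1 at 0 and 0 against 1.18 and 0.0446 CPM. Vsig4 had too few counts to be tested. Csf1r and Timd4 lost their calls without MSM pool 1 (edgeR adjusted p = 0.0264 and 0.0102). Fcgr1 and Mertk lost their calls without SSM pool 1 (edgeR adjusted p = 0.0322 and 0.0494). Spic and Cd68 lost their calls without MSM pool 2 (edgeR adjusted p = 0.0142 and 0.0238).

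MSMs were higher for nearly the whole machinery of antigen presentation by MHC class II, in which the invariant chain Cd74 guides the class II chains to endosomes, H2-DM exchanges the bound peptide and H2-O holds H2-DM back. Of 13 genes tested, 12 were called for MSMs and none for SSMs, with a median log2 fold change of -3.18, and their summed level was 12990 and 9730 CPM in SSMs and 113500 and 99180 CPM in MSMs. Cd74 stood at 47630 and 39920 CPM in MSMs and 5436 and 4253 CPM in SSMs (log2 fold change -3.18 ± 0.13 SE, edgeR adjusted p = 1.46e-05). The classical chains behaved alike: H2-Ab1 was at 31880 and 27320 against 2770 and 2121 CPM (log2 fold change -3.60 ± 0.12 SE, edgeR adjusted p = 1.44e-05), H2-Aa at 14920 and 13780 against 1815 and 1284 CPM and H2-Eb1 at 14130 and 13470 against 1432 and 1046 CPM. In each case the lower MSM library lay several fold above the higher SSM library. The inhibitory chains H2-Ob (448 and 458 against 9.69 and 12.1 CPM, log2 fold change -5.38 ± 0.17 SE, edgeR adjusted p = 1.44e-05) and H2-Oa (183 and 194 against 8.29 and 8.71 CPM) differed by more than the classical ones, with log2 fold changes of -5.38 and -4.47. Ciita, the transactivator of these genes, was at 222 and 234 CPM in MSMs and 35.6 and 27.8 CPM in SSMs (log2 fold change -2.84 ± 0.18 SE, edgeR adjusted p = 5.03e-05). Ifi30, a thiol reductase of the endosome, was at 265 and 323 against 141 and 83.2 CPM. Ctss, the cathepsin that trims the invariant chain, was the member not called (1198 and 1154 against 1022 and 659 CPM, log2 fold change -0.51 ± 0.15 SE, edgeR adjusted p = 0.0498). Ifi30 lost its call without MSM pool 2 (edgeR adjusted p = 0.0559).

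Class II promoters are known for a shared upstream module that ends in a Y box, an inverted CCAAT element whose core reads GATTGG, and their starts are shown because these genes moved together. Each stretch holds 120 bases, from 140 to 21 bases before the start of transcription, read in the direction of the gene from RefSeq on GRCm38.p6. Capitals mark GATTGG or its reverse complement, a motif searched after the letters had been seen. The stretches lie at chr17:34287844-34287963(-) for H2-Aa, chr17:34305727-34305846(+) for H2-Eb1, chr17:34325535-34325654(+) for H2-Eb2, chr17:34153051-34153170(+) for H2-DMb1, chr17:34145109-34145228(+) for H2-DMb2, chr17:34092239-34092358(+) for H2-Oa, chr17:34238765-34238884(+) for H2-Ob and chr17:34122692-34122811(+) for H2-DMa.
H2-Aa: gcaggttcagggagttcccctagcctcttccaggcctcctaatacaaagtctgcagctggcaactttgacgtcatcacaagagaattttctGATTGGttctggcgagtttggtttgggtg
H2-Eb1: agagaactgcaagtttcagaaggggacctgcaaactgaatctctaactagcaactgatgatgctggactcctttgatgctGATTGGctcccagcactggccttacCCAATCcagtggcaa
H2-Eb2: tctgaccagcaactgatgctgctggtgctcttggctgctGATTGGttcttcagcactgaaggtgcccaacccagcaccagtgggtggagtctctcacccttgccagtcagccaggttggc
H2-DMb1: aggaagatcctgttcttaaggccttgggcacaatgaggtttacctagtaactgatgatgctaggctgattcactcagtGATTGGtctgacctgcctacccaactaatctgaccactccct
H2-DMb2: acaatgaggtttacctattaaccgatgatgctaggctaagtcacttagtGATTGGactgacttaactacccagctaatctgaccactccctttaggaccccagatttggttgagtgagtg
H2-Oa: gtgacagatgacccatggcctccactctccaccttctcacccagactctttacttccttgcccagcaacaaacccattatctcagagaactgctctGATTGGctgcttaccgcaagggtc
H2-Ob: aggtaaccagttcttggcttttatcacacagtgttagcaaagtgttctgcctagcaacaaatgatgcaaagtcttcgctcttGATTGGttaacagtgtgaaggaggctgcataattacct
H2-DMa: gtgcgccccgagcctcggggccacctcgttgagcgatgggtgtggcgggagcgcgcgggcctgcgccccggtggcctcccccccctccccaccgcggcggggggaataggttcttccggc
Of 9 called class II genes searched, 7 held the motif within the 300 bases from 250 before to 50 after the start, and H2-DMa and Ifi30 did not. H2-Ab1 and Ciita were not among the starts matched. The same motif was in 21.1% of 1302 such windows of genes called for MSMs, 16.5% of 1306 windows of genes called for SSMs, 19.9% of windows of all genes with a mean normalized count above 100 and 16.1% of all 32851 windows in the table. A match of these letters is a description of the sequence only.

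MHC class I genes were called in both directions. Of 20 genes tested, 9 were called for MSMs and 3 for SSMs (median log2 fold change -0.49). Those higher in MSMs were the inducible proteasome subunits and the peptide transporter, with Psmb9 at 609 and 554 CPM in MSMs and 124 and 91.7 CPM in SSMs (log2 fold change -2.43 ± 0.21 SE, edgeR adjusted p = 0.00021) and Tap1 at 726 and 553 against 190.5 and 158 CPM (log2 fold change -1.87 ± 0.13 SE, edgeR adjusted p = 8.82e-05). The chaperones Calr (1105 and 1046 against 661 and 687 CPM) and Pdia3 (1722 and 1485 against 761 and 883 CPM) were on the same side. Psmb9, Tap1, Psmb8 and Tap2 lie between the class II genes on chromosome 17. The class I heavy chain H2-K1 was instead higher in SSMs, by a small margin (3980 and 3769 against 2613 and 2647 CPM, log2 fold change 0.56 ± 0.09 SE, edgeR adjusted p = 0.00308). So were the non-classical H2-Q6 (657 and 730.5 against 274 and 351 CPM) and H2-Q7 (619 and 585 against 279.6 and 315 CPM), which share sequence with each other and are less certain. B2m, the light chain of all class I molecules, was at 5494 and 4062 CPM in SSMs and 3574 and 4339 CPM in MSMs and was not called. Calr lost its call without MSM pool 2 (edgeR adjusted p = 0.034). Pdia3, H2-K1 and H2-Q7 lost their calls without MSM pool 1 (edgeR adjusted p = 0.0234, 0.0373 and 0.0138).

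Genes of cross-presenting type 1 dendritic cells (cDC1) were also on the MSM side. These cells take up dying cells and present their antigens to CD8 T cells. Of 16 cDC1 genes tested, 14 were called for MSMs and none for SSMs, with a median log2 fold change of -4.76, and their summed level was 2527 and 2499 CPM in SSMs and 15820 and 13070 CPM in MSMs. Clec9a, a receptor for exposed actin of dead cells, was at 200.1 and 203 CPM in MSMs and 2.08 and 1.01 CPM in SSMs (log2 fold change -7.0 ± 0.32 SE, edgeR adjusted p = 1.85e-05). Xcr1, the receptor for the chemokine Xcl1, was at 752 and 701 CPM in MSMs and 24.9 and 33.6 CPM in SSMs (log2 fold change -4.65 ± 0.17 SE, edgeR adjusted p = 1.44e-05). Wdfy4, which cDC1 need for cross-presentation, was at 1035 and 806 against 28.8 and 22 CPM, and the adhesion molecule Cadm1 at 796 and 624 against 7.34 and 9.84 CPM. The groups were far apart for all 4 genes. The 2 transcription factors that specify the lineage differed by less. Irf8 was at 2267 and 1783 CPM in MSMs and 833 and 787 CPM in SSMs (log2 fold change -1.32 ± 0.16 SE, edgeR adjusted p = 0.000849). Batf3 was at 60.6 and 59.9 against 17.2 and 21.7 CPM (log2 fold change -1.64 ± 0.18 SE, edgeR adjusted p = 0.000581). The lysosomal enzymes Ppt1, which removes palmitate from proteins (5769 and 4680 against 192 and 166 CPM), and Naaa, which breaks down N-acylethanolamines (2112 and 1723 against 111 and 65.8 CPM), were called as well. Itgae and Id2 were not called, with Itgae at 148 and 174 against 146 and 164 CPM and Id2 at 1048 and 1161 against 1419 and 1257 CPM. No gene of the cDC1 list encodes a sorting marker, but the MSM gate required CD11c, which dendritic cells also carry. The list is therefore not independent of the gate, and what cDC1 contributed to the MSM libraries was not tested. Irf8 lost its call without SSM pool 2 (edgeR adjusted p = 0.0111).

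Cd8a, whose protein marks cDC1 as well as T cells, was at 605 and 386 CPM in MSMs and 25.8 and 23 CPM in SSMs (log2 fold change -4.34 ± 0.27 SE, edgeR adjusted p = 4.86e-05). Its partner chain Cd8b1 was low and higher in SSMs (43.6 and 34.1 against 16.8 and 17.2 CPM). Btla, an inhibitory receptor, was also higher in MSMs (556 and 486 against 36.3 and 43.1 CPM, log2 fold change -3.72 ± 0.16 SE, edgeR adjusted p = 1.63e-05). So was Fcrla, an intracellular Fc receptor-like protein (37.6 and 33.8 against 0.331 and 1.4 CPM, log2 fold change -5.40 ± 0.42 SE, edgeR adjusted p = 0.000122), which is listed here with B cells. Cd79a, a chain of the B cell receptor, was not called (4.89 and 4.53 against 3.97 and 9.69 CPM). Havcr2, which encodes TIM-3, was at 870.1 and 752 CPM in MSMs and 62.1 and 44.2 CPM in SSMs (log2 fold change -3.94 ± 0.16 SE, edgeR adjusted p = 1.46e-05). Cd36, a scavenger receptor for lipids and apoptotic cells, was at 545 and 468 CPM in MSMs and 23.7 and 24.5 CPM in SSMs (log2 fold change -4.39 ± 0.17 SE, edgeR adjusted p = 1.46e-05). Cd8b1 lost its call without MSM pool 1 (edgeR adjusted p = 0.0632).

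Endosomal sensing separated by receptor. Tlr3, the receptor for double-stranded RNA, was at 172 and 152 CPM in MSMs and 4.45 and 2.22 CPM in SSMs (log2 fold change -5.60 ± 0.31 SE, edgeR adjusted p = 3.25e-05). Tlr11 (104 and 76.1 against 1.31 and 1.6 CPM, log2 fold change -5.97 ± 0.38 SE, edgeR adjusted p = 5.58e-05) and Tlr12 (36 and 31.8 against 2.06 and 2.95 CPM), which recognise profilin of Toxoplasma, were higher in MSMs too. Unc93b1, the chaperone that carries endosomal receptors, was as well (1366 and 1090 against 340.4 and 246 CPM). Tlr7 (34 and 19.3 against 4.23 and 8.56 CPM) and Tlr8 (12.6 and 7.17 against 3.67 and 2.58 CPM) were higher in SSMs. Tlr9 (1.23 and 0.323 against 1.31 and 0.111 CPM) and Myd88, an adaptor that most of these receptors use (117 and 84.7 against 112 and 109 CPM), were not called. Over all 19 genes of this list, 5 were called for MSMs and 2 for SSMs. Tlr7 lost its call without SSM pool 1 (edgeR adjusted p = 0.052). Tlr8 lost its call without MSM pool 1 (edgeR adjusted p = 0.0394).

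Genes of migratory and mature dendritic cells were also mostly on the MSM side. Among these, 13 of 23 tested were called for MSMs and 2 for SSMs (median log2 fold change -1.39), with a summed level of 4705 and 6085 CPM in SSMs and 13390 and 12250 CPM in MSMs. The costimulatory ligand Cd86 was at 999 and 875 CPM in MSMs and 121 and 95.6 CPM in SSMs (log2 fold change -3.12 ± 0.14 SE, edgeR adjusted p = 1.9e-05) and its relative Cd80 at 189 and 237 against 67.8 and 58.5 CPM. Cd83, which keeps class II on the cell surface, was at 5447 and 4813 CPM in MSMs and 930.2 and 1338 CPM in SSMs (log2 fold change -2.18 ± 0.18 SE, edgeR adjusted p = 0.000163). Flt3, the receptor on which dendritic cells depend, was at 852 and 672 against 32.3 and 47.7 CPM (log2 fold change -4.29 ± 0.34 SE, edgeR adjusted p = 0.00013), and Cd207, the langerin of Langerhans cells, at 126 and 68.9 against 0.736 and 2.99 CPM. The T cell-attracting chemokines Ccl17 (91.3 and 68.1 against 13.8 and 13.5 CPM) and Ccl22 (1148 and 1003 against 233 and 331 CPM) were higher in MSMs as well. Ccr7, the receptor that leads mature dendritic cells to nodes, was abundant on both sides and was not called (1233 and 1877 against 1662 and 1644 CPM, log2 fold change -0.12 ± 0.18 SE, edgeR adjusted p = 0.696). Zbtb46, which marks conventional dendritic cells, was not called either (100.5 and 148 against 222 and 148 CPM). The 2 members higher in SSMs were the neighbours Tmem176a (406 and 373 against 132 and 156 CPM) and Tmem176b (541 and 530.2 against 234 and 258 CPM). Ccl17 lost its call without MSM pool 1 (edgeR adjusted p = 0.0403). Ccl22 lost its call without SSM pool 1 (edgeR adjusted p = 0.0279).

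The list for type 2 dendritic cells and Notch2 had 5 of 18 genes called on each side. Notch4 was higher in MSMs (97.7 and 64.5 against 0.0368 and 0.364 CPM, log2 fold change -8.70 ± 0.60 SE, edgeR adjusted p = 5.24e-05). The lectins Cd209a (181 and 164 against 20.3 and 14.3 CPM) and Mgl2 (101 and 72.1 against 11.1 and 8.57 CPM), the inhibitory lectin Clec12a (309 and 314 against 103 and 62.6 CPM) and Rbpj, through which Notch acts (113 and 122 against 32.9 and 34.8 CPM), were on the same side. Dtx1 (79.8 and 86.7 against 7.82 and 11.7 CPM), Ltb (296 and 339 against 34.9 and 51.9 CPM), Cd4 (404 and 475 against 87.8 and 116 CPM), Tbx21 and Itgam were higher in SSMs. Ltb, Cd4 and Tbx21 are also in the lymphocyte lists below, and Itgam encodes a sorting marker. The equal counts are therefore not those of type 2 dendritic cell genes alone. Plasmacytoid dendritic cell genes had 1 call each way among 14, a share close to the 6.06% and 6.01% over all genes, and Siglech was at 4.56 and 7.05 against 4.95 and 10.7 CPM. Cd209a and Mgl2 lost their calls without SSM pool 2 (edgeR adjusted p = 0.0134 and 0.013). Dtx1, Ltb and Cd4 lost their calls without MSM pool 1 (edgeR adjusted p = 0.0295, 0.0102 and 0.0194).

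Lysosomal genes leaned to MSMs, 11 of 30 against 5 (median log2 fold change -0.40), and their summed level was 9720 and 6954 CPM in SSMs and 19050 and 18530 CPM in MSMs. Psap, the precursor of the saposins that help degrade sphingolipids, was at 9185 and 9617 CPM in MSMs and 2480 and 1306 CPM in SSMs (log2 fold change -2.38 ± 0.21 SE, edgeR adjusted p = 0.000228). Gusb, a glucuronidase, was at 1104 and 838 against 120.1 and 114 CPM (log2 fold change -3.04 ± 0.14 SE, edgeR adjusted p = 1.82e-05) and Asah1, an acid ceramidase, at 483 and 425 against 161 and 137 CPM. The cathepsins were divided. Ctsh (532 and 555 against 257 and 215 CPM) and Ctsz (796 and 763 against 376 and 303 CPM) were higher in MSMs, and Ctsd (282 and 264 against 35.7 and 62.1 CPM, log2 fold change 2.48 ± 0.29 SE, edgeR adjusted p = 0.000815) and Ctsf (20.6 and 28.4 against 1.85 and 2.81 CPM) in SSMs. Ctsb (965 and 829.6 against 1128 and 925 CPM) and Ctsl (50.5 and 38.1 against 13.5 and 28.7 CPM) were not called. The proton pump that acidifies the lysosome had 5 of 21 subunits called, all for MSMs, and in Atp6v0a2 the levels were 289 and 222 against 88.8 and 88.9 CPM. The mean count cutoff was passed by 16 of the 21, and of all genes that passed it 12.8% were called for MSMs. Fcgrt, the neonatal Fc receptor that recycles IgG, was at 244 and 223 CPM in MSMs and 18.5 and 13.1 CPM in SSMs (log2 fold change -3.88 ± 0.21 SE, edgeR adjusted p = 2.93e-05). Ctsf lost its call without MSM pool 1 (edgeR adjusted p = 0.0391).

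Cell cycle genes were higher in MSMs for 15 of 24 tested, with 1 call for SSMs and a median log2 fold change of -1.57. Top2a (74.9 and 72.7 against 22.6 and 36.7 CPM, log2 fold change -1.32 ± 0.25 SE, edgeR adjusted p = 0.00794), Mki67 (51.5 and 40.9 against 14.6 and 17.7 CPM), Rrm2, which makes deoxynucleotides (109.9 and 84 against 25.4 and 41.5 CPM), and Birc5 (36.5 and 44 against 6.34 and 8.51 CPM) were on the MSM side. The D cyclins were opposed. Ccnd1 was at 62.3 and 52.4 CPM in MSMs and 7.85 and 7.01 CPM in SSMs (log2 fold change -2.95 ± 0.30 SE, edgeR adjusted p = 0.000428). Ccnd2 was at 451 and 392 CPM in SSMs and 33.4 and 53.8 CPM in MSMs (log2 fold change 3.30 ± 0.22 SE, edgeR adjusted p = 7.09e-05). Top2a, Mki67 and Rrm2 lost their calls without MSM pool 1 (edgeR adjusted p = 0.059, 0.035 and 0.0592). Birc5 lost its call without MSM pool 2 (edgeR adjusted p = 0.0125).

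Immediate early and stress genes, which cell isolation is known to raise, were called for MSMs in 9 of 23 and for SSMs in 2. Egr2 (339.8 and 278 against 73.6 and 61.1 CPM, log2 fold change -2.19 ± 0.13 SE, edgeR adjusted p = 4.09e-05), Nr4a2 (1947 and 1959 against 604 and 619.9 CPM) and the heat shock genes Hspa1a (655 and 508 against 170.3 and 174 CPM) and Hspa1b (1187 and 878 against 359 and 359 CPM), which are near-identical copies, were higher in MSMs. Fos (1601 and 1578 against 2118 and 1828 CPM), Jun (203 and 228 against 306 and 296 CPM) and Egr1 (275 and 298 against 306 and 208 CPM) were high in all 4 libraries and were not called. Their part in the other differences was not tested.

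On the SSM side several of the widest differences were in genes of mast cells, which store proteases, histamine and serotonin in granules and carry the IgE receptor. Of 23 mast cell genes tested, 13 were called for SSMs and none for MSMs, with a median log2 fold change of 9.29, or 6.49 with genes at the floor set to their bound. Their summed level was 3530 and 2401 CPM in SSMs and 677 and 703 CPM in MSMs, where most of it was Kit. The granule protease Cpa3 was at 562 and 311 CPM in SSMs and 0.0256 and 0.0891 CPM in MSMs (edgeR adjusted p = 3.32e-05), which in MSMs is 1 count in pool 1 and 4 counts in pool 2. The chymases Mcpt4 (504 and 249 against 0.154 and 0.178 CPM, log2 fold change 11.18 ± 0.87 SE, edgeR adjusted p = 2.56e-05) and Cma1 (506 and 288 against 0.538 and 1.67 CPM, log2 fold change 8.52 ± 0.69 SE, edgeR adjusted p = 0.000129) were under 2 CPM in MSMs. The same held for the tryptases Tpsb2 (723 and 396 against 0.538 and 1.94 CPM, log2 fold change 8.92 ± 0.78 SE, edgeR adjusted p = 0.000108) and Tpsab1 (89.9 and 57.7 against 0.0256 and 0.0223 CPM, at least 1026-fold, edgeR adjusted p = 0.00119). Tph1, which makes serotonin, was at 32.8 and 32.1 against 0 and 0 CPM (at least 451-fold, edgeR adjusted p = 0.000861), and Mrgprb1, a mast cell receptor of the Mrgpr family, at 70.8 and 36.8 against 0 and 0 CPM (at least 748-fold, edgeR adjusted p = 0.00138). Hdc, which makes histamine, was also present in MSMs (399 and 328 against 64.5 and 69.5 CPM, log2 fold change 2.45 ± 0.24 SE, edgeR adjusted p = 0.000353). Kit, the stem cell factor receptor that defines mast cells, was not called (339 and 481 against 606 and 614 CPM, log2 fold change -0.57 ± 0.22 SE, edgeR adjusted p = 0.105), and Mcpt1 was at or below the floor everywhere. The part of mast cells in the SSM libraries was not tested. Tpsab1 lost its call without MSM pool 2 (edgeR adjusted p = 0.0217). Mrgprb1 lost its call without MSM pool 1 (edgeR adjusted p = 0.0138).

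GATA factors bind sites with a GATA core and are known to act in mast cells, where Gata2 was among the genes higher in SSMs (60.04 and 50.8 against 0.462 and 3.41 CPM, log2 fold change 4.86 ± 0.52 SE, edgeR adjusted p = 0.000826). Starts of 4 called mast cell genes are shown with AGATAA, the 1 form of the site searched, or its reverse complement in capitals, at chr3:20242202-20242321(-) for Cpa3, chr1:173227250-173227369(-) for Fcer1a, chr14:56062331-56062450(-) for Mcpt4 and chr14:55944696-55944815(-) for Cma1, cut and read as above.
Cpa3: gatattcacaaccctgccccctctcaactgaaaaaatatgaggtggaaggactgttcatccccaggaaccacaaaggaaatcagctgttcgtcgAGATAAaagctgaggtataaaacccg
Fcer1a: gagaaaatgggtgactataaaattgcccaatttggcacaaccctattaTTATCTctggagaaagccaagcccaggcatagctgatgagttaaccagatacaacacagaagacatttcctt
Mcpt4: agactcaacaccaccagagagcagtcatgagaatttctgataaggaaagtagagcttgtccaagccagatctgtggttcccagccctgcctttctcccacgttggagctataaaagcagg
Cma1: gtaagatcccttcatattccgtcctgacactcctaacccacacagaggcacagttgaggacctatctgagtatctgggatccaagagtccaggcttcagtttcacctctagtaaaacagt
The Mcpt4 and Cma1 starts printed hold other forms, TGATAA and the reverse complement of AGATAG, which were not marked or counted. Of the 11 called mast cell genes whose start was in the table, 4 held AGATAA within the 300 bases around the start: Cpa3, Fcer1a, Il1rl1 and Slc18a2. Tph1, Gata2 and Il1rl1 had 2 starts each in the table. The motif was in 7.12% of the windows of genes called for SSMs, 6.76% of those called for MSMs, 6.41% of all genes with a mean normalized count above 100 and 11.2% of all windows in the table.

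Other granulocyte lists were led by SSMs at lower levels. Of 15 basophil genes, 7 were called for SSMs and none for MSMs (summed level 714 and 527 CPM in SSMs and 149.8 and 156 CPM in MSMs). Among them were Fcer1a, the IgE receptor chain (32.9 and 14.9 against 0.0513 and 0.0223 CPM, at least 332-fold, edgeR adjusted p = 0.00373), Osm (266 and 171 against 58.9 and 46.1 CPM), Cd69 (222 and 199 against 35.8 and 44.4 CPM) and Il4 (26.5 and 9.96 against 0.0513 and 0.379 CPM). The basophil protease Mcpt8 was not called (1.6 and 3.92 against 0.0256 and 0.602 CPM). Fcer1a, Gata2, Ms4a2 and Cd200r3 of the basophil list are also in the mast cell list, and Ccr3 is also in the eosinophil list. The granulocyte lists are therefore not independent of each other. Of 10 eosinophil genes, 3 were called for SSMs: Siglecf (32 and 23.9 against 1.92 and 2.79 CPM), Ccr3, the eotaxin receptor (27 and 23 against 0.923 and 0.981 CPM), and Alox15 (85.4 and 86.7 against 4.62 and 9.74 CPM). The granule protein gene Prg2 was at 4.56 and 2.45 against 0.974 and 0.869 CPM and Epx at or below the floor. Of 13 neutrophil genes, 4 were called for SSMs. They were Csf3r (54.1 and 47.5 against 6.25 and 8.11 CPM, log2 fold change 2.79 ± 0.30 SE, edgeR adjusted p = 0.000571), Mmp9 (27.7 and 23.9 against 1.77 and 1.45 CPM, log2 fold change 4.02 ± 0.36 SE, edgeR adjusted p = 0.00024), Mmp8 and the granule protein gene Ngp (12.9 and 104 against 0.0513 and 0 CPM, at least 814-fold, edgeR adjusted p = 0.00637). SSM pool 2 was well above SSM pool 1 for Ngp, for S100a8 (4.34 and 40.7 against 0.897 and 0.0223 CPM) and for S100a9 (3.02 and 46.1 against 0.641 and 0 CPM). The last 2 were not called. Fcer1a, Ccr3 and Ngp lost their calls without MSM pool 2 (edgeR adjusted p = 0.059, 0.0296 and 0.0786). Il4, Siglecf and Alox15 lost their calls without MSM pool 1 (edgeR adjusted p = 0.0969, 0.0415 and 0.0607).

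**Figure D2:**
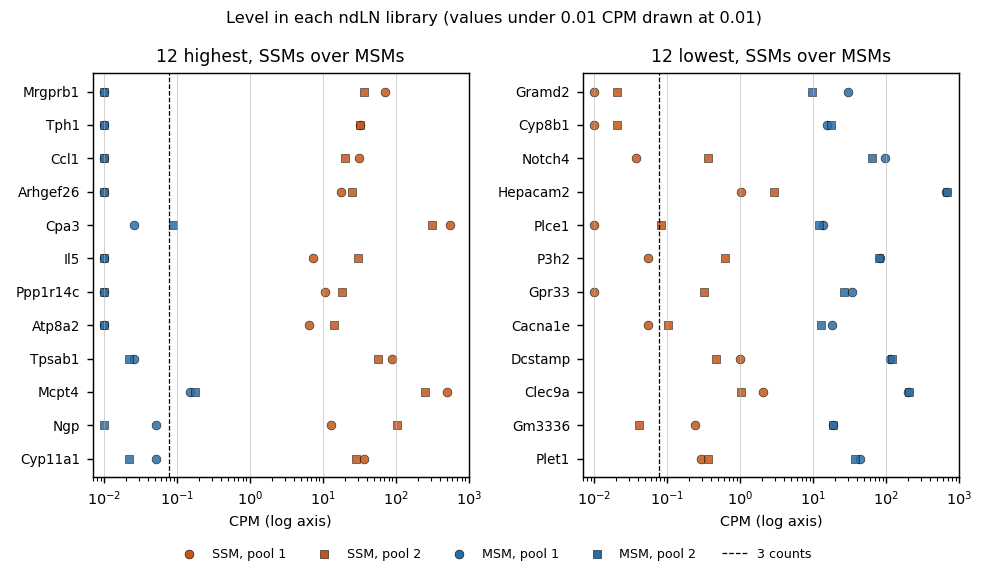
Normalized level in each of the 4 ndLN libraries (log axis, CPM) of the 12 genes with the highest and the 12 with the lowest log2 fold change among genes called with and without the pool in the model, immunoglobulin and T cell receptor segments left out, with circles for pool 1 and squares for pool 2; the dashed line marks 3 counts and values under 0.01 CPM are drawn at 0.01. The SSM and MSM points do not overlap in any of the 24 genes, which were chosen for these differences.

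Genes of natural killer (NK) cells and cytotoxic lymphocytes were called for SSMs in 23 of 25 and for MSMs in none (median log2 fold change 4.77), and their summed level was 8592 and 7685 CPM in SSMs and 641 and 749.7 CPM in MSMs. Gzma, a granule protease, was at 872 and 570.00 CPM in SSMs and 9.23 and 24.4 CPM in MSMs (log2 fold change 5.54 ± 0.46 SE, edgeR adjusted p = 0.000172). Gzmb was at 826 and 772 against 21.8 and 43.2 CPM and Prf1, the pore-forming perforin, at 432 and 385 against 7.46 and 11.1 CPM. Il2rb, the receptor chain shared by interleukin 2 and interleukin 15, was at 2773 and 3051 CPM in SSMs and 62.5 and 86.6 CPM in MSMs (log2 fold change 5.29 ± 0.19 SE, edgeR adjusted p = 1.44e-05). The NK receptors Ncr1 (144 and 113 against 1.1 and 1.76 CPM, log2 fold change 6.50 ± 0.36 SE, edgeR adjusted p = 3.47e-05) and Klrb1c (141 and 116 against 1.21 and 1.94 CPM) and the transcription factor Eomes (76.9 and 63.5 against 2.69 and 1.27 CPM) were likewise on the SSM side. S1pr5, which lets NK cells leave the node, was at 12 and 12.9 against 0.179 and 0 CPM (log2 fold change 7.17 ± 0.66 SE, edgeR adjusted p = 0.000133). The 2 members not called were Klrk1, which encodes NKG2D and was high in both (315 and 290.5 against 264 and 183 CPM), and Gzmk (0.349 and 1.21 against 0 and 0 CPM). Both pools of SSMs were above both pools of MSMs for each gene given here.

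Among killer cell lectin-like receptors, 16 of 26 tested were called for SSMs and 2 for MSMs. Klra8 (42.2 and 36.9 against 0.436 and 0.535 CPM), Klra9 (68.1 and 63.2 against 0.744 and 0.401 CPM, log2 fold change 6.88 ± 0.39 SE, edgeR adjusted p = 2.96e-05) and Klra7 (46.9 and 42.3 against 0.256 and 3.61 CPM), of the Ly49 receptors that read class I, were higher in SSMs. Klrc1 (247 and 210.4 against 3.33 and 1.72 CPM, log2 fold change 6.52 ± 0.34 SE, edgeR adjusted p = 2.68e-05) and Klre1 (103 and 79.4 against 3.31 and 4.43 CPM) were too. Klri1, a receptor that pairs with Klre1, was on the other side at 77.2 and 72.8 CPM in MSMs and 3.15 and 1.44 CPM in SSMs (log2 fold change -5.02 ± 0.29 SE, edgeR adjusted p = 3.53e-05). Its neighbour Klri2 was higher in SSMs (74.7 and 83.3 against 15.9 and 20.7 CPM), and Klrg2 was higher in MSMs (10.00 and 5.75 against 1.27 and 0.364 CPM). Ly49 genes share long identical stretches, so reads may be split between them. Klri2 and Klrg2 lost their calls without MSM pool 1 (edgeR adjusted p = 0.02 and 0.0351).

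Genes of gamma-delta T cells that make interleukin 17 and of type 3 innate lymphoid cells (ILC3) were called for SSMs in 23 of 26 tested (median log2 fold change 5.13), and their summed level was 4564 and 5573 CPM in SSMs and 776 and 759 CPM in MSMs. Cxcr6, a homing receptor for Cxcl16, was at 1324 and 1703 CPM in SSMs and 17.9 and 20.8 CPM in MSMs (log2 fold change 6.28 ± 0.23 SE, edgeR adjusted p = 1.44e-05). Il23r, a chain of the interleukin 23 receptor, was at 137 and 195 against 1.92 and 4.81 CPM. The antigen receptor constant genes Trdc (44.3 and 48.2 against 2.15 and 0.446 CPM, log2 fold change 5.22 ± 0.41 SE, edgeR adjusted p = 0.000129) and Tcrg-C1 (76.6 and 93.5 against 1.56 and 1.05 CPM) were on the SSM side. So were the scavenger receptor genes 5830411N06Rik (393 and 476 against 4.62 and 0.111 CPM, log2 fold change 7.65 ± 0.73 SE, edgeR adjusted p = 0.000331) and Cd163l1 (54.1 and 85.5 against 2.97 and 0.0223 CPM), which gamma-delta T cells carry. Among cytokines, Il17a was at 13.2 and 14 against 0.744 and 0 CPM, Il17f at 44.3 and 61.7 against 2.33 and 1.02 CPM and Il22 at 368 and 444 against 3.54 and 1.78 CPM. Ahr, the aryl hydrocarbon receptor, was the member higher in MSMs (637 and 572 against 109 and 94 CPM, log2 fold change -2.58 ± 0.12 SE, edgeR adjusted p = 1.96e-05). It made up most of the summed level in MSMs. Il17a lost its call without MSM pool 2 (edgeR adjusted p = 0.0152).

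Type 2 innate lymphoid cell (ILC2) genes gave 12 calls for SSMs and none for MSMs among 17 (median log2 fold change 4.70), with a summed level of 1666 and 2043 CPM in SSMs and 95.2 and 141 CPM in MSMs. Gata3, a transcription factor of these cells, was at 133 and 163 CPM in SSMs and 4.33 and 6.02 CPM in MSMs (log2 fold change 4.84 ± 0.19 SE, edgeR adjusted p = 1.46e-05). Rora, another, was at 607 and 800.2 CPM in SSMs and 14.7 and 26.6 CPM in MSMs (log2 fold change 5.10 ± 0.26 SE, edgeR adjusted p = 2.51e-05). Il1rl1, the interleukin 33 receptor, was at 55.3 and 50.2 against 1.02 and 3.03 CPM, Il17rb, the interleukin 25 receptor, at 39.4 and 57.8 against 0 and 2.07 CPM, and Calca, which encodes the neuropeptide CGRP, at 58.9 and 100.1 against 0.744 and 1.29 CPM. Il5 was called at 7.37 and 29.99 against 0 and 0 CPM (at least 259.9-fold, edgeR adjusted p = 0.00336), and Il13 was not (5.63 and 2.37 against 0.0256 and 0.156 CPM). Arg1 was at 8.37 and 9.58 against 0.154 and 0.646 CPM and Ptgdr2 at 1.12 and 0.384 against 0.308 and 0.958 CPM, neither called. Il1rl1 lost its call without MSM pool 1 (edgeR adjusted p = 0.035). Il5 lost its call without MSM pool 2 (edgeR adjusted p = 0.0486).

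T cell receptor and signalling genes were called for SSMs in 21 of 25 and for MSMs in 1, Cd8a (median log2 fold change 3.18), with a summed level of 6844 and 8410 CPM in SSMs and 2795 and 2739 CPM in MSMs. Most of the MSM sum was Ccr7, which was not called, and Cd8a, both given above. Thy1 was at 38 and 29.9 CPM in SSMs and 0.872 and 1.69 CPM in MSMs (log2 fold change 4.69 ± 0.33 SE, edgeR adjusted p = 8.24e-05). Tcf7, a transcription factor of T cells and their innate relatives, was at 693 and 907 against 59.8 and 85.3 CPM (log2 fold change 3.47 ± 0.15 SE, edgeR adjusted p = 1.63e-05). Cd40lg, by which T cells license dendritic cells, was at 136 and 140.2 against 3.31 and 1.56 CPM. Cd5 (21.7 and 22.3 against 27.1 and 33.3 CPM) and Themis (13.3 and 14.8 against 2.69 and 5.84 CPM), which are largely T cell genes, were not called. Of 136 receptor gene segments tested, 15 were called for SSMs and none for MSMs, among them Trbc2 (289 and 286 against 18.8 and 39.3 CPM), Trbc1 (185 and 181 against 13.5 and 22.6 CPM) and Trac (219.9 and 281 against 38.9 and 37.2 CPM). The lists for NK cells, ILC3, ILC2 and T cells share members such as Ncr1, Il2ra and Bcl11b and are not independent of each other. What lymphocytes contributed to the SSM libraries was not tested. Trac lost its call without MSM pool 1 (edgeR adjusted p = 0.0275).

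**Figure D3:**
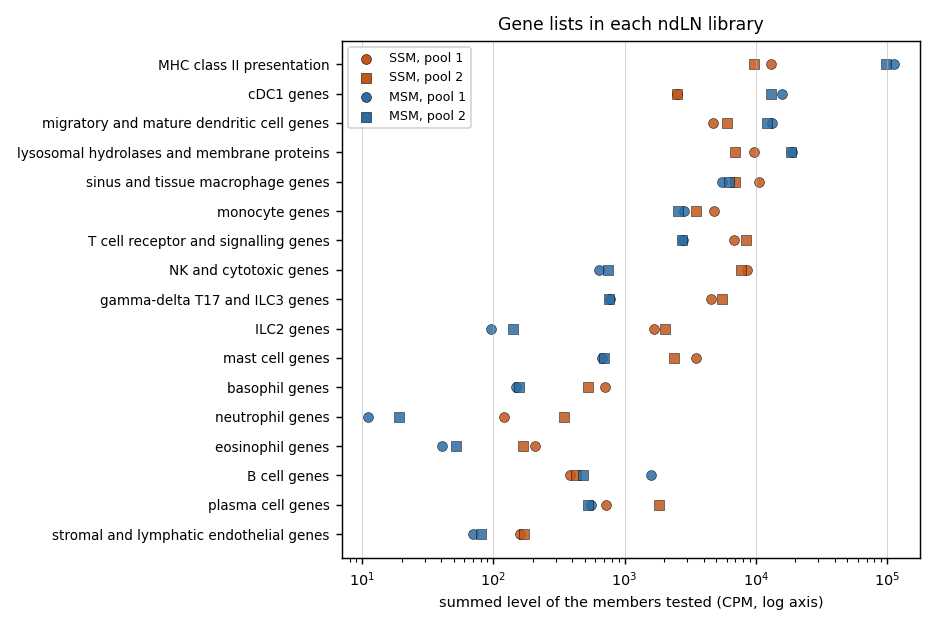
Summed normalized level (CPM, log axis) of cell type lists and of MHC class II and lysosomal genes in each of the 4 ndLN libraries, with circles for pool 1 and squares for pool 2. SSM libraries lie to the right for mast cell, NK, ILC and T cell genes, MSM libraries for cDC1 and mature dendritic cell genes. Most of the MSM sum was Kit for mast cell genes, Ahr for gamma-delta T cell and ILC3 genes, and Ccr7 with Cd8a for T cell genes.

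B cell and plasma cell genes were called in part, beside 12.1% of all genes called in either direction. Of 18 B cell genes, 2 were called each way, and Ms4a1, which encodes CD20, was at 1.69 and 5.76 against 5.95 and 14.8 CPM. Of 16 plasma cell genes, 2 were called for SSMs, the proteoglycan Sdc1 (333 and 474 against 13.2 and 13.1 CPM, log2 fold change 4.93 ± 0.34 SE, edgeR adjusted p = 7.4e-05) and Prdm1 (46.5 and 45.6 against 21.1 and 23.2 CPM), and none for MSMs. Immunoglobulin transcripts followed single libraries instead: Jchain was at 1.14 and 48.5 against 108 and 1.92 CPM and Ighg2c at 0.294 and 539.6 against 2.26 and 36.6 CPM, neither called. The summed level of 92 variable genes was 5.65 and 325 CPM in SSMs and 508 and 25.9 CPM in MSMs. Igkv1-135 was called for SSMs, at 0.570 and 193 against 0.0256 and 0.735 CPM (edgeR adjusted p = 0.00039), and was not called without the pool in the model. Blk, a kinase of B cells and of gamma-delta T cells, was at 100.2 and 142 CPM in SSMs and 2.33 and 8.4 CPM in MSMs (log2 fold change 4.51 ± 0.35 SE, edgeR adjusted p = 0.000116). Cxcr5, the receptor that leads cells to follicles, was at 23.9 and 36 against 3.9 and 6.95 CPM (log2 fold change 2.47 ± 0.22 SE, edgeR adjusted p = 0.000227). A list of non-immune genes, mostly stromal and lymphatic endothelial, had 2 calls for SSMs among 18. They were Pecam1 (74.5 and 69 against 27 and 42.5 CPM) and Bpifa2 (61.6 and 59.4 against 28.4 and 24.7 CPM). Bpifa2 is a salivary gland transcript and not a gene of stroma or endothelium. In tdLN it was at 0.0224 and 0 CPM in SSMs and 0.0485 and 0 CPM in MSMs, and its source was not tested. Prox1, which defines lymphatic endothelium, was at 1.2 and 0.546 against 0 and 0 CPM. Prdm1 and Pecam1 lost their calls without MSM pool 1 (edgeR adjusted p = 0.0658 and 0.0618). Igkv1-135 lost its call without SSM pool 2 (edgeR adjusted p = 0.993). Bpifa2 lost its call without MSM pool 2 (edgeR adjusted p = 0.0586).

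Monocyte genes were called for SSMs in 7 of 12 and for MSMs in 1 (median log2 fold change 2.15), with a summed level of 4808 and 3505 CPM in SSMs and 2818 and 2555 CPM in MSMs. Ccr2, by which monocytes leave the marrow, was at 577 and 519.6 CPM in SSMs and 192 and 141 CPM in MSMs (log2 fold change 1.73 ± 0.13 SE, edgeR adjusted p = 0.00011). F13a1, a coagulation factor subunit, was at 119 and 78.5 against 6.46 and 1.11 CPM (log2 fold change 4.83 ± 0.36 SE, edgeR adjusted p = 0.0001). Ly6c2 was at 582 and 172 against 36.4 and 34.3 CPM, Ace at 103 and 65.5 against 5.84 and 3.08 CPM and Chil3 at 232 and 149 against 8.54 and 16.3 CPM. Treml4 was the member higher in MSMs (161 and 127 against 81.5 and 72.7 CPM). Cebpb, a factor of the myeloid lineage, was at 797 and 703 CPM in SSMs and 92.7 and 109.8 CPM in MSMs (log2 fold change 2.88 ± 0.20 SE, edgeR adjusted p = 7.87e-05). Spi1, which encodes PU.1, was at 1155 and 1046 CPM in MSMs and 258 and 204 CPM in SSMs (log2 fold change -2.25 ± 0.14 SE, edgeR adjusted p = 4.59e-05). Alox5, the lipoxygenase that starts leukotriene synthesis, was higher in SSMs (38.9 and 30.1 against 1.49 and 0.379 CPM), and its activating protein gene Alox5ap was higher in MSMs (113 and 125 against 51.7 and 25 CPM). The leukotriene receptor gene Cysltr1 was higher in SSMs (69.1 and 58.4 against 17.1 and 25.6 CPM) and the prostaglandin E2 receptor gene Ptger4 in MSMs (249 and 232 against 98.7 and 116 CPM). Ly6c2 and Ptger4 lost their calls without MSM pool 1 (edgeR adjusted p = 0.0312 and 0.0263). Treml4, Alox5 and Alox5ap lost their calls without MSM pool 2 (edgeR adjusted p = 0.0469, 0.0167 and 0.0674). Cysltr1 lost its call without SSM pool 1 (edgeR adjusted p = 0.0265).

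Opsonin and uptake receptors were divided between the subsets. The Fc receptors Fcgr3 (109 and 86 against 15.7 and 20.1 CPM, log2 fold change 2.41 ± 0.23 SE, edgeR adjusted p = 0.000335) and Fcer1g, the chain through which they signal (984 and 567 against 180.1 and 199.5 CPM), were higher in SSMs. The inhibitory Fcgr2b was not called (157 and 89.4 against 131 and 149 CPM). Of 20 complement genes, 14 of which passed the mean count cutoff, 5 were called for SSMs and 2 for MSMs. Among all genes over that cutoff, 12.7% were called for SSMs and 12.8% for MSMs, so the calls for MSMs were near that share. C3 (198 and 113 against 32 and 33.9 CPM, log2 fold change 2.16 ± 0.23 SE, edgeR adjusted p = 0.000529), C5ar1 (45.1 and 31.5 against 2.62 and 8.31 CPM) and Cd93 (53.4 and 37.7 against 1.72 and 1.69 CPM, log2 fold change 4.72 ± 0.27 SE, edgeR adjusted p = 3.47e-05) were among the former. Cfp, which encodes properdin, was one of the latter (214 and 217 against 51.6 and 45.9 CPM). The C1q chains, which many tissue macrophages make, were not called, with C1qa at 21.2 and 12.8 CPM in SSMs and 10.2 and 30.2 CPM in MSMs. Of 23 scavenger and uptake receptors, 17 of which passed the cutoff, 4 were called for SSMs and 5 for MSMs. The former included Msr1 (76.1 and 51.5 against 11.7 and 11.8 CPM, log2 fold change 2.40 ± 0.23 SE, edgeR adjusted p = 0.000323) and Stab2 (14.2 and 16.5 against 0.744 and 0.0223 CPM). Marco (14.9 and 13.9 against 10.2 and 11.6 CPM) was not called. Among C-type lectins, Clec4e, the sensor Mincle, was higher in SSMs (231 and 159.5 against 17.6 and 29.6 CPM, log2 fold change 2.99 ± 0.32 SE, edgeR adjusted p = 0.000566). Fcer1g lost its call without MSM pool 1 (edgeR adjusted p = 0.0118). C5ar1 lost its call without SSM pool 1 (edgeR adjusted p = 0.0371). Stab2 lost its call without MSM pool 2 (edgeR adjusted p = 0.0117).

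**Figure D4:**
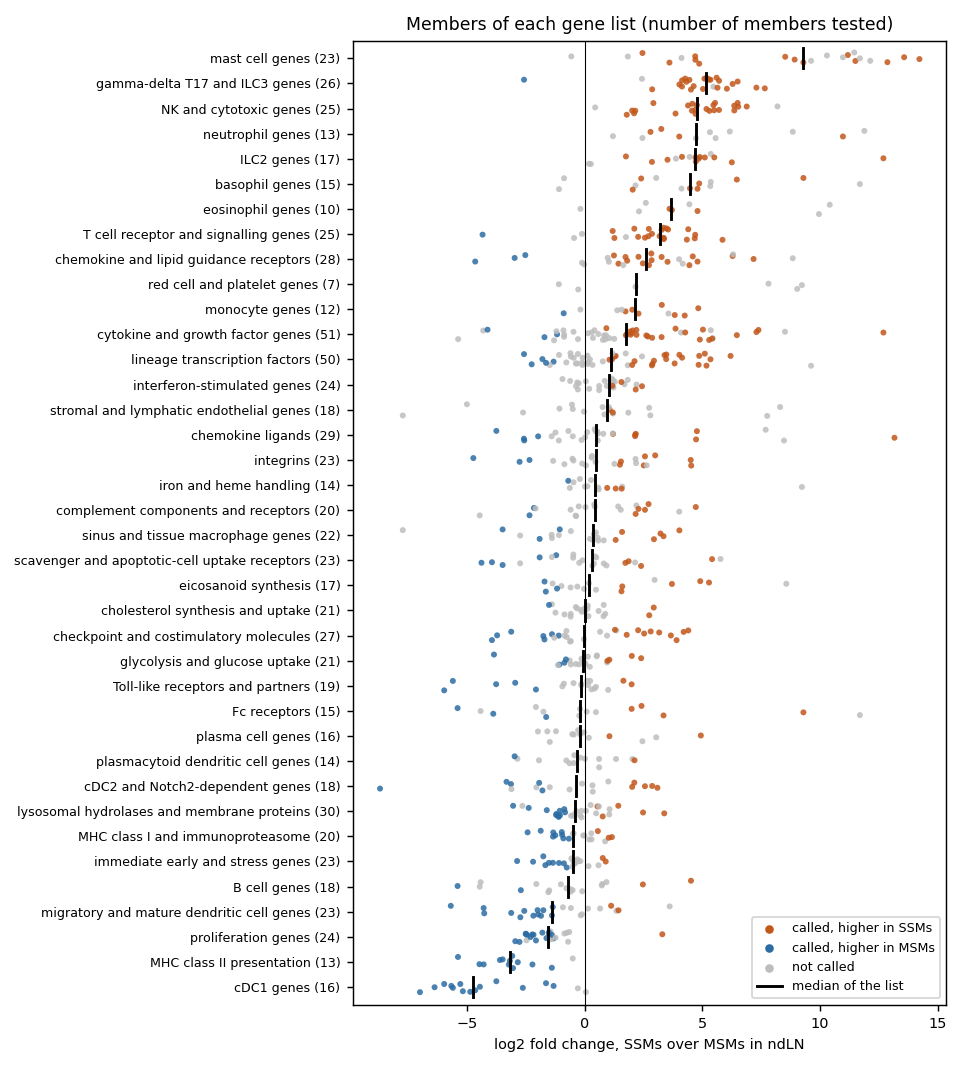
Log2 fold changes of SSMs over MSMs of the tested members of each list (points; members at the floor in both subsets are not drawn), with called members colored by direction and the median of each list as a vertical bar; the thin line marks 0. MHC class II and cDC1 genes sit on the MSM side and mast cell, ILC, NK and T cell genes on the SSM side, with members on both sides of most macrophage lists.

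Genes of secreted signals were called mostly for SSMs. Of 51 cytokine and growth factor genes tested, 23 were called for SSMs and 3 for MSMs (median log2 fold change 1.75). The mean count cutoff was passed by 37 of the 51, and of all genes that passed it 12.7% were called for SSMs and 12.8% for MSMs. Il5, Lta and Ltb are also in the lymphocyte lists above, so these calls are not separate from those. Tnfsf11, which encodes the RANK ligand that sinus macrophages need, was at 179 and 242 CPM in SSMs and 2.77 and 6.93 CPM in MSMs (log2 fold change 5.42 ± 0.39 SE, edgeR adjusted p = 9.44e-05). Lta, which encodes lymphotoxin alpha, was at 28.4 and 29.6 against 1.46 and 1.54 CPM (log2 fold change 4.27 ± 0.34 SE, edgeR adjusted p = 0.00013), and Ltb at 296 and 339 against 34.9 and 51.9 CPM. Csf2 was at 36 and 51.3 against 0.308 and 0.223 CPM, Csf1 at 59.99 and 48.6 against 15.1 and 13.3 CPM, Flt3l at 21.1 and 19.6 against 2.85 and 6.2 CPM and Vegfa at 888 and 1013 against 135 and 173 CPM. Il1b (3602 and 3211 against 1980 and 1111 CPM), Il12b (816 and 718 against 22.4 and 73.6 CPM) and Tnfsf9 (118 and 107 against 43.1 and 26.2 CPM) were higher in MSMs. Among TNF family receptors, Tnfrsf9, to which Tnfsf9 binds, was at 469 and 614 CPM in SSMs and 37.4 and 48.1 CPM in MSMs (log2 fold change 3.66 ± 0.15 SE, edgeR adjusted p = 1.46e-05). Tnf (87.9 and 57.2 against 41.8 and 56 CPM), Il6 (28.4 and 23 against 45.6 and 51.1 CPM) and Il10 (1.89 and 4.63 against 2.02 and 1.47 CPM) were not called. Ltb, Flt3l, Vegfa, Il12b and Tnfsf9 lost their calls without MSM pool 1 (edgeR adjusted p = 0.0102, 0.0263, 0.0106, 0.0106 and 0.0182). Csf1 and Il1b lost their calls without MSM pool 2 (edgeR adjusted p = 0.0425 and 0.037).

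Chemokine ligands were less one-sided, with 7 of 29 called for SSMs and 4 for MSMs. The mean count cutoff was passed by 23 of the 29, and of all genes that passed it 12.7% were called for SSMs and 12.8% for MSMs. Ccl1, a ligand of Ccr8, was at 31.1 and 20.1 against 0 and 0 CPM (at least 356-fold, edgeR adjusted p = 0.000114), Ccl5 at 964 and 648 against 145 and 232 CPM and Xcl1 at 132 and 95 against 4.03 and 4.57 CPM. Cxcl16, the ligand of Cxcr6, was higher in MSMs at 808 and 618 against 96.8 and 146 CPM (log2 fold change -2.58 ± 0.23 SE, edgeR adjusted p = 0.000211), and Cxcl9, induced by interferon gamma, at 374 and 258 against 39.1 and 10.6 CPM. Chemokine and lipid guidance receptors were called for SSMs in 16 of 28 and for MSMs in 3. Ligand and receptor were on opposite sides for Xcl1 and Xcr1 and for Cxcl16 and Cxcr6, whereas Ccl1 and Ccr8 (101 and 109 against 6.31 and 12.2 CPM, log2 fold change 3.52 ± 0.31 SE, edgeR adjusted p = 0.000215) were both higher in SSMs. Ccr6 was at 148 and 166 against 5.56 and 8.96 CPM and Ccr4, a receptor for Ccl17 and Ccl22, at 31.2 and 34.1 against 1.05 and 1.63 CPM (log2 fold change 4.59 ± 0.30 SE, edgeR adjusted p = 4.66e-05). S1pr1 (182 and 230.5 against 22.9 and 40.2 CPM) and S1pr3 (53.7 and 55.2 against 4.46 and 6.78 CPM), receptors for sphingosine 1-phosphate in lymph, were higher in SSMs. P2ry14 (187 and 165 against 39.7 and 21.4 CPM) and Ccr9 (49.1 and 32.7 against 3.42 and 7.05 CPM) were higher in MSMs, and Cxcr4 was not called (92.7 and 57.4 against 32.9 and 40.8 CPM). Ccl5, Cxcl9, P2ry14 and Ccr9 lost their calls without MSM pool 1 (edgeR adjusted p = 0.0284, 0.0142, 0.0234 and 0.0199). Xcl1 lost its call without MSM pool 2 (edgeR adjusted p = 0.0129).

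Of 50 lineage transcription factors, 21 were called for SSMs and 5 for MSMs. Ikzf3, a lymphoid factor, was at 383 and 526 CPM in SSMs and 4.41 and 7.96 CPM in MSMs (log2 fold change 6.20 ± 0.23 SE, edgeR adjusted p = 1.44e-05). Tox (34 and 44.8 against 2.92 and 4.57 CPM), Bcl11b (88.4 and 101 against 10.4 and 15.8 CPM) and Zbtb16 (19.2 and 20.4 against 0.256 and 1.94 CPM) were lymphoid factors on the same side. Bhlhe40, which is active in tissue macrophages and lymphocytes, was at 1451 and 1945 against 724 and 788 CPM. Nr1h3, the liver X receptor of sinus and splenic macrophages (12.2 and 14.6 against 10.9 and 12.1 CPM), Irf4 (19.3 and 21.8 against 46.8 and 69.8 CPM), Id2 and Runx3 (199.5 and 164 against 228 and 246 CPM) were not called. Of 23 integrins, 7 were called for SSMs, including Itgal, the LFA-1 chain (658 and 739.8 against 277 and 221 CPM, log2 fold change 1.50 ± 0.15 SE, edgeR adjusted p = 0.000347), and Itgb3 (95.1 and 111 against 4.28 and 4.68 CPM, log2 fold change 4.53 ± 0.38 SE, edgeR adjusted p = 0.00018). Another 3 were called for MSMs, including Itga8 (52 and 33.4 against 2.21 and 0.970 CPM). Itgb1 (493 and 503 against 785 and 609.5 CPM) and Itgb2 (868 and 821 against 939 and 881 CPM) were abundant and not called. Of 27 checkpoint and costimulatory genes, 10 were called for SSMs, of which Pdcd1 was at 98.1 and 131 against 16.9 and 22.8 CPM, Tigit at 11.4 and 16.6 against 0.590 and 1.25 CPM and Icos at 935 and 1054 against 37.5 and 57.6 CPM, and 7 for MSMs. Cd274, which encodes PD-L1, was not called (214 and 234 against 170.00 and 118 CPM). Bhlhe40 lost its call without MSM pool 1 (edgeR adjusted p = 0.0218).

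Beside 6.01% of all genes called for SSMs and 6.06% for MSMs, ribosomal protein genes had few calls. Among 87 ribosomal protein genes, 2 were called for MSMs and none for SSMs (median log2 fold change -0.46, and 0.03 without SSM pool 2): Rpl4 (1060 and 1112 against 696 and 631 CPM) and Rps27l (308 and 348 against 109 and 99.3 CPM). Among 79 nuclear respiratory chain genes 5 were called, all for MSMs, including Atp5b (1544 and 1396 against 947 and 1008 CPM) and Uqcrfs1 (199.9 and 205 against 118 and 106 CPM). That share was close to the one over all genes. However, 73 of the 79 passed the mean count cutoff, and of all genes that passed it 12.8% were called for MSMs. Among 34 constitutive proteasome subunits 4 were called, all for MSMs, including Psma1 (294 and 313 against 173 and 144 CPM). Of 21 cholesterol genes 3 were called. The regulator Srebf2 was higher in MSMs (361 and 318 against 110.3 and 128 CPM, log2 fold change -1.52 ± 0.15 SE, edgeR adjusted p = 0.000326). Mvk, a mevalonate kinase (78.9 and 106 against 13.4 and 10.8 CPM, log2 fold change 2.93 ± 0.23 SE, edgeR adjusted p = 0.000117), and Abca1, a cholesterol exporter (56.5 and 35.8 against 4.56 and 8.96 CPM), were higher in SSMs. Glycolysis genes gave 4 calls each way among 21, a higher share than over all genes. All 21 passed the mean count cutoff, and of all genes that did, 12.7% were called for SSMs and 12.8% for MSMs. Hk2 was at 173 and 184 CPM in SSMs and 31.7 and 36 CPM in MSMs (log2 fold change 2.40 ± 0.17 SE, edgeR adjusted p = 7.87e-05). Aldoc was at 31.4 and 18.8 CPM in MSMs and 1.47 and 1.96 CPM in SSMs (log2 fold change -3.85 ± 0.35 SE, edgeR adjusted p = 0.000256). Gapdh (417 and 365 against 381 and 382 CPM) and Ldha (892 and 851 against 1132 and 923 CPM) were not called. Pfkp, the committing kinase of glycolysis, was higher in MSMs (840.00 and 688 against 344 and 378 CPM) and the enolase Eno1 in SSMs (574 and 599.6 against 322 and 282 CPM). The ferritin heavy chain Fth1 was higher in SSMs (7001 and 6133 against 2999 and 3760 CPM) and the light chain Ftl1 in MSMs (1301 and 1236 against 828 and 737 CPM), and most of the sequence of Ftl1 is shared with other genes. Rpl4, Psma1 and Eno1 lost their calls without MSM pool 2 (edgeR adjusted p = 0.0321, 0.0245 and 0.0183). Atp5b, Uqcrfs1, Abca1, Pfkp and Ftl1 lost their calls without MSM pool 1 (edgeR adjusted p = 0.0543, 0.043, 0.0105, 0.013 and 0.0416). Fth1 lost its call without SSM pool 1 (edgeR adjusted p = 0.0172).

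Interferon-stimulated genes varied with the pool as well as the subset. Of 24 tested, 4 were called for SSMs and none for MSMs (median log2 fold change 1.04), and the summed level was 3590 and 1378 CPM in SSMs and 1999 and 894 CPM in MSMs, higher in pool 1 on both sides. Oasl2 (149 and 68.2 against 38.1 and 11.9 CPM, log2 fold change 2.17 ± 0.33 SE, edgeR adjusted p = 0.0026) and Oas2 (37.6 and 15.1 against 8.38 and 1.69 CPM) were called only with the pool in the model. Gbp2 was called with and without it (140.5 and 80.8 against 49.5 and 47 CPM). Ifit1 (124 and 47.1 against 33.7 and 5.5 CPM) and Isg15 (234 and 98.1 against 100.3 and 44.5 CPM) were not called. Oasl2 and Oas2 lost their calls without SSM pool 1 (edgeR adjusted p = 0.0299 and 0.0367). Gbp2 lost its call without MSM pool 1 (edgeR adjusted p = 0.0847).

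Gene families showed single members far from the rest. Of 55 Rab GTPases, 9 were called for MSMs and 7 for SSMs. The mean count cutoff was passed by 42 of the 55, and of all genes that passed it 12.8% were called for MSMs and 12.7% for SSMs. Rab7b, which acts in late endosomes, was at 1391 and 1150 CPM in MSMs and 53.9 and 42.1 CPM in SSMs (log2 fold change -4.73 ± 0.20 SE, edgeR adjusted p = 1.46e-05). Rab27b, which acts in granule release, was at 79 and 60.2 CPM in SSMs and 0.205 and 1.02 CPM in MSMs (log2 fold change 6.77 ± 0.57 SE, edgeR adjusted p = 0.000183). Rab7, a relative of Rab7b (495 and 441 against 264 and 282 CPM), and Rab10 (472 and 401 against 233 and 266 CPM) differed by under 1 on the log2 scale. Of 279 solute carriers, 27 were called for MSMs and 24 for SSMs, beside 6.06% and 6.01% of all genes. Slc25a20, which carries acylcarnitine into mitochondria, was at 591 and 442 against 55.4 and 58.5 CPM (log2 fold change -3.17 ± 0.19 SE, edgeR adjusted p = 4.28e-05). Slc27a6, a fatty acid carrier, was at 13.5 and 12.8 against 0.436 and 0 CPM (log2 fold change 6.01 ± 0.71 SE, edgeR adjusted p = 0.000792) and Slc25a3, the mitochondrial phosphate carrier, at 697 and 692 against 376 and 399 CPM. Of 15 Ms4a genes, 5 were called for SSMs and none for MSMs, with Ms4a4b at 499 and 388 against 44.9 and 56.4 CPM (log2 fold change 3.15 ± 0.23 SE, edgeR adjusted p = 8.76e-05). Ms4a4a also differed (log2 fold change 3.86 ± 0.27 SE, edgeR adjusted p = 7.87e-05) and Ms4a4c was at 482 and 211 against 94.4 and 67.5 CPM. Rab7, Rab10, Slc25a3 and Ms4a4c lost their calls without MSM pool 1 (edgeR adjusted p = 0.0307, 0.0452, 0.0193 and 0.0205). Slc27a6 lost its call without MSM pool 2 (edgeR adjusted p = 0.0123).

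Several of the widest differences lay outside every list. In MSMs, Hepacam2, an adhesion molecule, was at 657 and 688 against 1.03 and 2.91 CPM (log2 fold change -8.44 ± 0.35 SE, edgeR adjusted p = 1.46e-05). P3h2, a collagen prolyl hydroxylase, was at 81.2 and 80.4 against 0.0552 and 0.627 CPM (log2 fold change -7.93 ± 0.40 SE, edgeR adjusted p = 1.63e-05). Dcstamp, a fusion protein of osteoclasts and dendritic cells, was at 114 and 119 against 0.993 and 0.465 CPM (log2 fold change -7.29 ± 0.33 SE, edgeR adjusted p = 1.91e-05). Cyp8b1, a sterol hydroxylase of bile acid synthesis, was at 15.3 and 17.8 against 0 and 0.0202 CPM (at least 286-fold, edgeR adjusted p = 0.000111), and Gramd2 at 30.02 and 9.54 against 0 and 0.0202 CPM (at least 342-fold). Plce1, a phospholipase, was at 13.7 and 12.1 against 0 and 0.0809 CPM, Gpr33 at 34.6 and 26.4 against 0 and 0.323 CPM, Cacna1e, a calcium channel chain, at 18 and 12.9 against 0.0552 and 0.101 CPM, Gm3336 at 19 and 18.5 against 0.239 and 0.0404 CPM and Plet1 at 43.7 and 37.3 against 0.294 and 0.364 CPM. In SSMs, Cyp11a1, which makes pregnenolone from cholesterol, was at 36.3 and 28.2 against 0.0513 and 0.0223 CPM (at least 449-fold, edgeR adjusted p = 0.00255). Arhgef26 (18 and 25.1 against 0 and 0 CPM, at least 299-fold), Ppp1r14c (10.8 and 18.3 against 0 and 0 CPM, at least 203-fold) and Atp8a2 (6.44 and 14.4 against 0 and 0 CPM, at least 145-fold) were at 0 in both MSM libraries. Gramd2 lost its call without SSM pool 1 (edgeR adjusted p = 0.0461). Cyp11a1 and Arhgef26 lost their calls without MSM pool 2 (edgeR adjusted p = 0.0474 and 0.0169). Ppp1r14c lost its call without SSM pool 2 (edgeR adjusted p = 0.0101).

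Per kilobase of exon, the most abundant genes called for MSMs were Cd74, Tmsb4x, H2-Ab1, Cst3, H2-Eb1 and H2-Aa. Their mean levels in MSMs were 26070, 18220, 11530, 11350, 7100 and 3778 CPM per kb. Cst3, which encodes the protease inhibitor cystatin C and is known for its level in dendritic cells, was at 14650 and 14090 CPM in MSMs and 744 and 618 CPM in SSMs (log2 fold change -4.39 ± 0.18 SE, edgeR adjusted p = 1.46e-05). Tmsb4x, an actin-binding peptide, was high in both (26080 and 23860 against 8107 and 7368 CPM). Psap, Cd83, Il1b and Atox1 completed the 10. Those for SSMs were Fth1, H2-K1, Fcer1g, Odc1, Ccl5 and Cxcr6, with mean levels in SSMs of 1893, 1319, 887, 848, 839.5 and 784 CPM per kb. AW112010 (685 and 504 against 136 and 145 CPM), Ifngr1, Gzma and Il2rb completed these 10. Odc1, which starts polyamine synthesis, was at 2642 and 3135 CPM in SSMs and 983 and 1043 CPM in MSMs (log2 fold change 1.51 ± 0.13 SE, edgeR adjusted p = 0.000166). Ifngr1, a chain of the interferon gamma receptor, was at 1951 and 2254 CPM in SSMs and 1066 and 984 CPM in MSMs (log2 fold change 1.04 ± 0.12 SE, edgeR adjusted p = 0.000772). Fth1 lost its call without SSM pool 1 (edgeR adjusted p = 0.0172). H2-K1, Fcer1g and Ccl5 lost their calls without MSM pool 1 (edgeR adjusted p = 0.0373, 0.0118 and 0.0284). AW112010 and Ifngr1 lost their calls without MSM pool 2 (edgeR adjusted p = 0.0166 and 0.0155).

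Called genes also sat side by side on chromosomes. On mm10, with neighbours taken among genes with a mean normalized count above 100, the longest stretch called for MSMs held 13 genes at chr17:34119541-34588503, from H2-DMa to Notch4 and including Psmb8, Psmb9, Tap1 and Tap2 (median log2 fold change -3.08). The longest called for SSMs held 11 genes at chr6:48626764-48847071, among them Gimap1, Gimap3, Gimap4 and Gimap8, GTPases of lymphocytes, and Tmem176a and Tmem176b (median 3.07). Natural killer receptor genes gave 9 at chr6:129729041-131247362 (median 4.26), and interleukin 1 family receptor genes 5 at chr1:40225080-40551705, Il1r1, Il1rl2, Il1rl1, Il18r1 and Il18rap (median 4.70). Length and base composition were close on the 2 sides. The median exon length was 4440 bases for genes called for SSMs and 4124 for MSMs, beside 4534 for all genes with a mean count above 100, and the median GC content was 49.95%, 49.67% and 49.33%. The counting was not stated to use strand, so genes that overlap an antisense partner, 39.6% and 39.8% of the genes called for SSMs and MSMs and 43.4% of all genes over the mean count cutoff, are less certain. Reads may also be shared where 50-base stretches of a gene occur in another, which held for 78.6% of the windows of Itgam, 46.3% of Flt3l, 44.6% of Trbc2, 41.4% of Trbc1, 40.2% of Il22, 35.5% of Klrc1, 34.1% of Tcrg-C1, 32.2% of Ctsd, 50.3% of Gapdh, 48.7% of Eno1, 37.5% of Odc1, 35.4% of Klra8, 30.7% of Klra9, 30.5% of H2-DMb2, 28.9% of Chil3, 28.5% of H2-DMb1 and 27% of Klrb1c.

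In tdLN, 2437 of the 2544 genes had the same sign and 1422 were themselves called there, where 8.68% of all genes tested were called. The difference between the node types was tested for every gene as an interaction, and 8 genes passed it at an adjusted p below 0.01 (edgeR), which is 0.0379% of all genes tested. All 8 were among the genes called in ndLN. In 7 of them MSMs were higher and the gap was wider in ndLN. H2-Ab1 stood in tdLN at 12020 and 9961 CPM in SSMs and 23590 and 23940 CPM in MSMs, beside 2770 and 2121 CPM in SSMs and 31880 and 27320 CPM in MSMs in ndLN (difference -2.48 ± 0.15 SE on the log2 scale, edgeR adjusted p = 0.00812). Cd74 stood in tdLN at 20780 and 18000 CPM in SSMs and 34260 and 37650 CPM in MSMs (difference -2.28 ± 0.17 SE on the log2 scale, edgeR adjusted p = 0.00855). The SSM libraries from tdLN were above those from ndLN for both genes. At an adjusted p below 0.05 the same test passed 216 genes (1.02%).

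**Figure D5:**
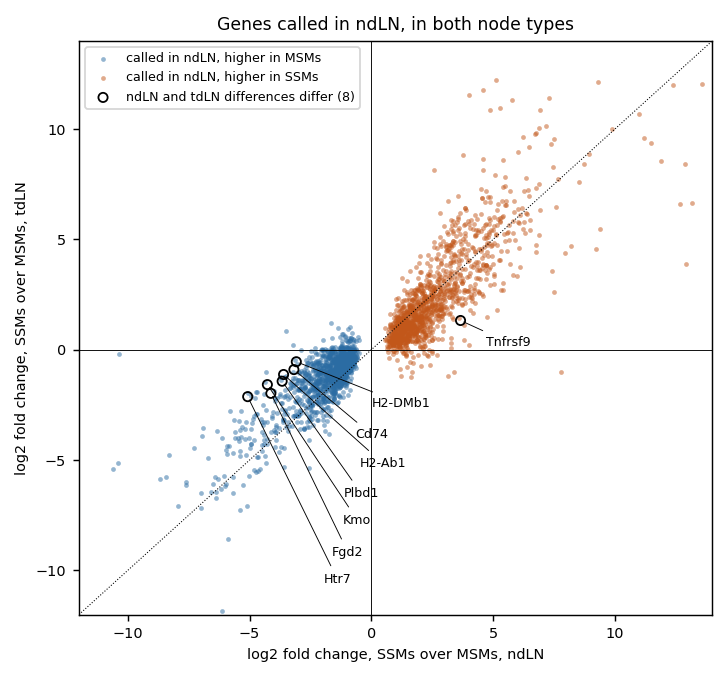
Log2 fold change of SSMs over MSMs in ndLN (x axis) and in tdLN (y axis) of the 2544 genes called in ndLN, with the dotted line at equal values and circles around the 8 genes whose differences differed between node types. Of the 2544 genes 2437 had the same sign in both node types, and 7 of the 8 circled genes lie nearer 0 in tdLN on the MSM side.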

How the data were processed

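Counts of RNA-seq reads per gene were analysed for SSMs and MSMs from lymph nodes of tumor-bearing mice. Complementary DNA was amplified by the authors from sorted cells (SMART-Seq v4) and read on a HiSeq 2500, and counts per gene and lane were deposited. The submitters' processing notes name bcl2fastq 2.20.0.422, Trimmomatic 0.36, STAR 2.5.3a and the mm10 genome; the counting step and its strand setting were not given in the sources used here. The table held 55423 rows, of which 2 were added sequences and were left out, and 16 columns, with 0 columns that could not be mapped to a sample.

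The columns were 8 libraries on 2 lanes each. Lanes of one library differed by counting noise (chi-square per degree of freedom 0.955 to 1.015), beside 29.3 to 53.1 between pools of one group, and were summed. Genes with at least 10 counts in all and detection in at least 2 of the 16 columns were kept, which left 21085. Counts were fitted with edgeR 4.0.16 in R 4.3.3 (TMM factors 0.902 to 1.15, quasi-likelihood test) with group and pool. The pool was the number in the labels. The label of 1 tdLN SSM library, TD_minus, held no number, and it was taken as pool 1. SSMs and MSMs with the same number were taken to come from the same nodes, which the labels do not state. As a check of this pairing, the deviations of SSM and MSM libraries of ndLN from their group means had a Pearson correlation of -0.0795 over 10000 genes. The value was 0.164 for SSMs and MSMs of tdLN and -0.150 to 0.0493 between node types. A shared pool would give a positive value, so the check did not bear out the pairing in ndLN. A call required an adjusted p (Benjamini-Hochberg) below 0.01 and a mean normalized count above 100 on the scale of 1 lane. On simulated counts for SSMs against MSMs in ndLN, with 200 of 21085 genes changed 4-fold, 183 genes were called, of which 177 were true and 6 were not, and with no gene changed 0 were called. Simulated calls used the adjusted p alone, without the mean count cutoff. The simulated counts held no pool effect, and unchanged genes had the same mean in every group. The simulation therefore checks the fit and not the error rate of the real calls. Coordinates, exon lengths and names were taken from GENCODE M21 on mm10, which held 55240 of the identifiers, and sequences from RefSeq on GRCm38.p6. Figures were drawn with matplotlib 3.10.9. Total counts were 42972328 to 48130352 per library, and the spread between the 2 pools of a group, well above counting noise, set the precision.

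The comparison, the gene lists and families were chosen with earlier results of these data known, so lists were described by counts and medians with no test. Genes were named by rule: the 12 highest and 12 lowest log2 fold changes among genes called with and without the pool in the model, immunoglobulin and T cell receptor segments left out; in each list or family the 3 called members with the highest mean count and the one with the largest difference; the 10 called genes of each subset with the highest CPM per kilobase; and the sorting genes. Other list members named in the text, and the 8 genes whose difference changed between node types, were chosen after their values were seen. Alternatives were the model without the pool, other normalizations and filters, the ndLN libraries alone, single lanes, each library left out, DESeq2 1.42.0, the Holm adjustment and other thresholds. A mean count cutoff from the ndLN libraries alone was added after seeing the data. Values of some list members are not reported here.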

Additional observations from a re-analysis of the deposited data

Results flagged for a closer look

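The difference between SSMs and MSMs differed between ndLN and tdLN for 8 genes by the interaction test (edgeR, adjusted p below 0.01 over all genes tested). Values are the log2 fold change in ndLN minus that in tdLN. Cd74 and H2-Ab1 are named by the rule for list members, and the others were chosen after their values were seen. In 7 of the 8 genes MSMs were higher in both node types and by more in ndLN. For Htr7, a serotonin receptor gene, SSMs and MSMs stood at 7.04 and 4.55 against 215 and 175 CPM in ndLN and at 52.0 and 40.2 against 206 and 193 CPM in tdLN (difference -2.95 ± 0.24 SE on the log2 scale, edgeR adjusted p = 0.00947). For Kmo, an enzyme of the kynurenine pathway, they stood at 6.75 and 6.97 against 134 and 129.9 CPM and at 62.9 and 69.3 against 207 and 189 CPM (difference -2.69 ± 0.22 SE on the log2 scale, edgeR adjusted p = 0.00947). For H2-DMb1, a chain of H2-DM, they stood at 160.4 and 135 against 1420 and 1086 CPM and at 849 and 721 against 1114 and 1161 CPM (difference -2.54 ± 0.19 SE on the log2 scale, edgeR adjusted p = 0.00855). The classical class II chain H2-Ab1 had a difference of -2.48 ± 0.15 SE on the log2 scale, edgeR adjusted p = 0.00812, and Cd74, the invariant chain, a difference of -2.28 ± 0.17 SE on the log2 scale, edgeR adjusted p = 0.00855. For Plbd1 they stood at 352 and 274 against 4356 and 3552 CPM and at 1214 and 1081 against 3108 and 3052 CPM (difference -2.23 ± 0.16 SE on the log2 scale, edgeR adjusted p = 0.00855), and for Fgd2 at 39 and 35.5 against 724 and 582 CPM and at 137 and 115 against 508 and 479.5 CPM (difference -2.15 ± 0.18 SE on the log2 scale, edgeR adjusted p = 0.00947). In all 7 the SSM libraries from tdLN were above those from ndLN. Tnfrsf9, which encodes the receptor 4-1BB, went the other way, with SSMs higher in both node types and by more in ndLN, at 469 and 614 against 37.4 and 48.1 CPM there and at 174.5 and 195 against 70.9 and 76.7 CPM in tdLN (difference 2.34 ± 0.19 SE on the log2 scale, edgeR adjusted p = 0.00947).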

How the results depend on the processing

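The counts of 1267 genes higher in SSMs and 1277 higher in MSMs stayed within 1.5 times under DESeq2 size factors (1316 and 1198), no filter on low counts (1202 and 1185), edgeR's filterByExpr (1366 and 1424), lane 3 alone (1323 and 1359), lane 4 alone (1298 and 1354), the DESeq2 Wald test (1767 and 1796) and a mean count cutoff from the ndLN libraries, which was added after seeing the data (1313 and 1281). Without the pool block, the model gave 1351 and 1456 genes, of which 1237 and 1250 were shared with the paired fit, and 7 named genes lost their call: Fscn1, Grn, Ighv7-3, Igkv1-135, Iglv2, Oas2 and Oasl2. Counts moved further under 5 settings. Scaling by library totals alone gave 1727 and 824 genes, the 4 ndLN libraries alone 590 and 354, the Holm adjustment 109 and 98, an adjusted p below 0.05 1823 and 2059, and a 4-fold cutoff in place of the mean count 947 and 553. Leaving out 1 library gave 576 to 901 genes higher in SSMs and 505 to 810 higher in MSMs, with the lowest counts without MSM pool 1 (576 and 505), then MSM pool 2 (628 and 605), SSM pool 2 (870 and 780) and SSM pool 1 (901 and 810), and 918 of the 2544 genes passed the adjusted p of 0.01 in all 4 of these fits. Leaving out a library or the tdLN libraries also leaves fewer samples to estimate the spread. The cause of the other changes was not tested. Over all alternatives, the log2 fold changes of the named genes kept their direction and their side of the threshold in 2254 cases, lost the call in 459, gained it in 2 (Ptprc with library totals alone and with the DESeq2 Wald test) and changed sign in 0. List medians moved by less than the spread between pools in 627 cases and by more in 75. With 2 libraries a side, small differences may pass no test at this depth.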

Other observations

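Each side of the comparison holds 2 pools of nodes from tumor-bearing mice, and tumor-free mice were not analysed here. The sorted populations also carried transcripts of mast cells, lymphocytes and dendritic cells, whose part in the differences was not tested. CPM levels depend on gene length and are compared between genes only per kilobase of exon. The study's own model numbers 4 pools where the labels give 2 numbers, and the numbers of the labels were used where given.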
